A study of Mus musculus with 11 samples.

Results

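The genes described here are 8 genes of interleukin 10 biology in cultured mouse CD8+ effector T cells. They are the cytokine genes Il10, Il24 and Il22, the receptor genes Il10ra and Il10rb, and Maf, Prdm1 and Ahr, which encode known transcriptional regulators of Il10. They were taken by name from the deposited values. Of the 8, 7 had a probe set with 1 gene symbol, out of 18193 such genes on the array, and all 7 were among the 14795 genes tested. Il22 had no such probe set of its own and was not analysed here. Il10 and Il24 were chosen by earlier results on these arrays, namely the size of the difference between origins in their response to stimulation, so their values are a description and carry no p. The other 5 measured genes were added by their known roles, but also with earlier results on these arrays known. Their p values and counts are therefore not those of a choice made blind to the data.

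Interleukin 10 is a secreted cytokine that limits inflammation. It signals through a receptor of a ligand-specific chain, encoded by Il10ra, and a shared chain, encoded by Il10rb, to the kinases JAK1 and TYK2 and the transcription factor STAT3, which induces the feedback inhibitor SOCS3. Effector CD8+ T cells can make interleukin 10 after antigen recognition, and c-MAF (Maf), Blimp-1 (Prdm1) and the aryl hydrocarbon receptor (Ahr) are known to promote its transcription in T cells. Il24 lies near Il10 on mouse chromosome 1, in a cluster with Il19 and Il20, and its product belongs to the same family but uses other receptors.

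All cells were CD8+ T cells of pmel-1 transgenic mice, which carry a T cell receptor against a peptide of the melanocyte antigen gp100, and the labels describe no wild-type group. Cells enriched as naive (CD44-) or central memory (CD44+) were all stimulated through CD3 and CD28, restimulated with hgp100 peptide on allogeneic feeder cells, and kept in interleukin 2 (10 cetus units) for 2 weeks in total. They then had a last CD3/CD28 stimulation of 4 h or none, which gave 3 memory-derived unstimulated, 3 memory-derived stimulated, 2 naive-derived unstimulated and 3 naive-derived stimulated arrays from 3 independent experiments. The labels do not give the age of the mice, how many were used, or how many feeder cells remained. Affymetrix arrays measured total RNA, so fewer cells that make a transcript and less transcript per cell cannot be told apart. Levels are log2 values converted from the deposited scale, whose base of 10 is an inference, and a level of 1.54 marks the filter on low values. Levels of different genes are not comparable.

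On all arrays the CD8 T cell markers Cd3e, Cd3d, Cd247, Cd8a and Cd8b1 were above the filter level, while Cd4, Ms4a1 and Cd79a were below it. Of the other markers measured for other cell types, Zbtb7b, Csf1r, Adgre1, Fcer1g and Kit were above it on all 11 arrays. Pax5, Sdc1 and Cd14 were above it on 9 arrays, Cd79b on 6, Itgam on 5, Foxp3 and Lyz2 on 4, and Ncr1 on 2. The summed level of the 5 CD8 T cell markers was lower after stimulation in memory-derived cells, at 41.2 to 42.4 without and 39.1 to 39.5 with stimulation, and 3 of the 5 passed as lower. In naive-derived cells it was 42.5 to 43.1 and 41.2 to 42.2, above memory-derived cells in both states. The sum of the 2 measured of 4 natural killer and innate lymphoid markers was 5.31 to 5.72 and 4.55 to 4.89 in memory-derived cells, and 4.91 to 5.24 and 4.98 to 5.27 in naive-derived cells. The sum of the 3 markers of CD4 and regulatory T cells was 5.68 to 5.71 and 5.07 to 5.87, and 5.38 to 5.50 and 4.86 to 5.51, in the same order. Of 6 listed B and plasma cell markers 5 were measured, and their summed level was 6.91 to 7.64 without and 6.67 to 7.43 with stimulation in memory-derived cells. In naive-derived cells it was higher, as Il10 was, at 8.99 to 9.35 without and 8.02 to 9.38 with stimulation. The members of this sum were low, and not all went the same way. In unstimulated cells the naive-derived and memory-derived means were 2.57 and 1.68 for Sdc1 and 2.36 and 1.54 for Pax5. For Cd79b they were 1.71 and 1.88. Of these 3 genes, Sdc1 and Pax5 passed as higher in naive-derived cells (10.9% of all genes) and 0 passed as lower (14.9%). Both calls were lost with control scaling (limma adjusted p = 0.106 and 0.0744). In stimulated cells the means were 2.68 and 1.84 for Sdc1, 2.08 and 2.13 for Pax5, and 1.58 and 1.23 for Cd79b. There 0 of the 3 passed, where 3.7% of all genes did. The sum of the 6 myeloid markers was 14.5 to 16.2 and 14.9 to 16.0 in memory-derived cells, and 13.4 to 14.2 and 12.6 to 14.9 in naive-derived cells, in the same order. The 3' minus 5' difference of the actin probe sets (log2), a sign of RNA quality, was 0.875 to 1.17 and 1.43 to 1.73 in memory-derived cells, and 1.54 to 1.59 and 1.93 to 2.60 in naive-derived cells. In each of the 4 comparisons of stimulation or origin the actin values of the groups lay apart. The part of the marker sums and of the actin difference in the results below was not tested.

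Il10 was low in memory-derived unstimulated cells and high in naive-derived cells with or without the last stimulation. Its level was 2.36, 2.49 and 0.39 on the memory-derived unstimulated arrays and 6.35, 5.72 and 5.80 on the memory-derived stimulated ones. It was 9.39 and 7.99 on the naive-derived unstimulated arrays and 9.87, 8.78 and 8.48 on the naive-derived stimulated ones. Both naive-derived unstimulated arrays therefore lay above every memory-derived stimulated array. In order of the means the groups stood at 1.75 ± 1.18 (SD, n = 3), 5.96 ± 0.342 (n = 3), 8.69 ± 0.984 (n = 2) and 9.04 ± 0.734 (n = 3), and only the last pair, the naive-derived groups, overlapped. The array of experiment 3 was the lowest of its group without stimulation and lay below the filter level.

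The fitted log2 difference of Il10 between naive-derived and memory-derived cells was 6.94 (SE 0.632) without and 3.09 (SE 0.565) with the last stimulation. Without memory-derived unstimulated array 3 the first was 6.27, and it was 6.25 and 7.64 without naive-derived unstimulated array 1 and 2. With low values set to the filter level it was 6.56. As 1 of the arrays compared lay below that level, no fold is given for it. Within experiments the difference was 7.03 and 5.50 in unstimulated cells, and 3.52, 3.05 and 2.69 in stimulated cells. Its sign could not vary between experiments, as every naive-derived array lay above every memory-derived one. The last stimulation itself went with a difference of 4.21 (SE 0.565) in memory-derived cells, at 3.99, 3.23 and 5.40 within experiments. Leaving out memory-derived unstimulated array 3, which lay below the filter level, brought this difference to 3.53. In naive-derived cells it was 0.35 (SE 0.632), at 0.49 and 0.78 within experiments 1 and 2, and with the replicate block it was 0.70 (SE 0.442). Without naive-derived unstimulated array 2 it was -0.34, and without naive-derived stimulated array 1 it was -0.06, so these arrays give no direction for it.

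Il24, a cytokine known to induce death of tumour cells, shared the low level of Il10 in memory-derived unstimulated cells but not its order in the other groups. Its level was 1.53, 2.99 and 1.81 on memory-derived unstimulated, 7.18, 6.49 and 6.27 on memory-derived stimulated, 5.45 and 5.18 on naive-derived unstimulated, and 6.50, 5.52 and 5.85 on naive-derived stimulated arrays. Memory-derived stimulated cells thus had the highest mean, 6.65 ± 0.472 (SD, n = 3), and overlapped with naive-derived stimulated cells at 5.95 ± 0.499 (n = 3). Naive-derived unstimulated cells at 5.31 ± 0.190 (n = 2) and memory-derived unstimulated cells at 2.11 ± 0.774 (n = 3) lay below both and apart from each other.

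The log2 difference of Il24 with the last stimulation was 4.54 (SE 0.379) in memory-derived cells and 0.64 (SE 0.423) in naive-derived cells. Between naive-derived and memory-derived cells it was 3.20 (SE 0.423) without and -0.69 (SE 0.379) with the last stimulation. In stimulated cells the Il24 difference by origin was -0.68, -0.97 and -0.42 in the 3 experiments, where that of Il10 was positive in each. The naive-derived minus memory-derived response to stimulation was -3.85 (SE 0.847) for Il10 and -3.90 (SE 0.568) for Il24. These comparisons share arrays, the memory-derived unstimulated ones above all, so they do not stand independently of each other.

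**Figure D1:**
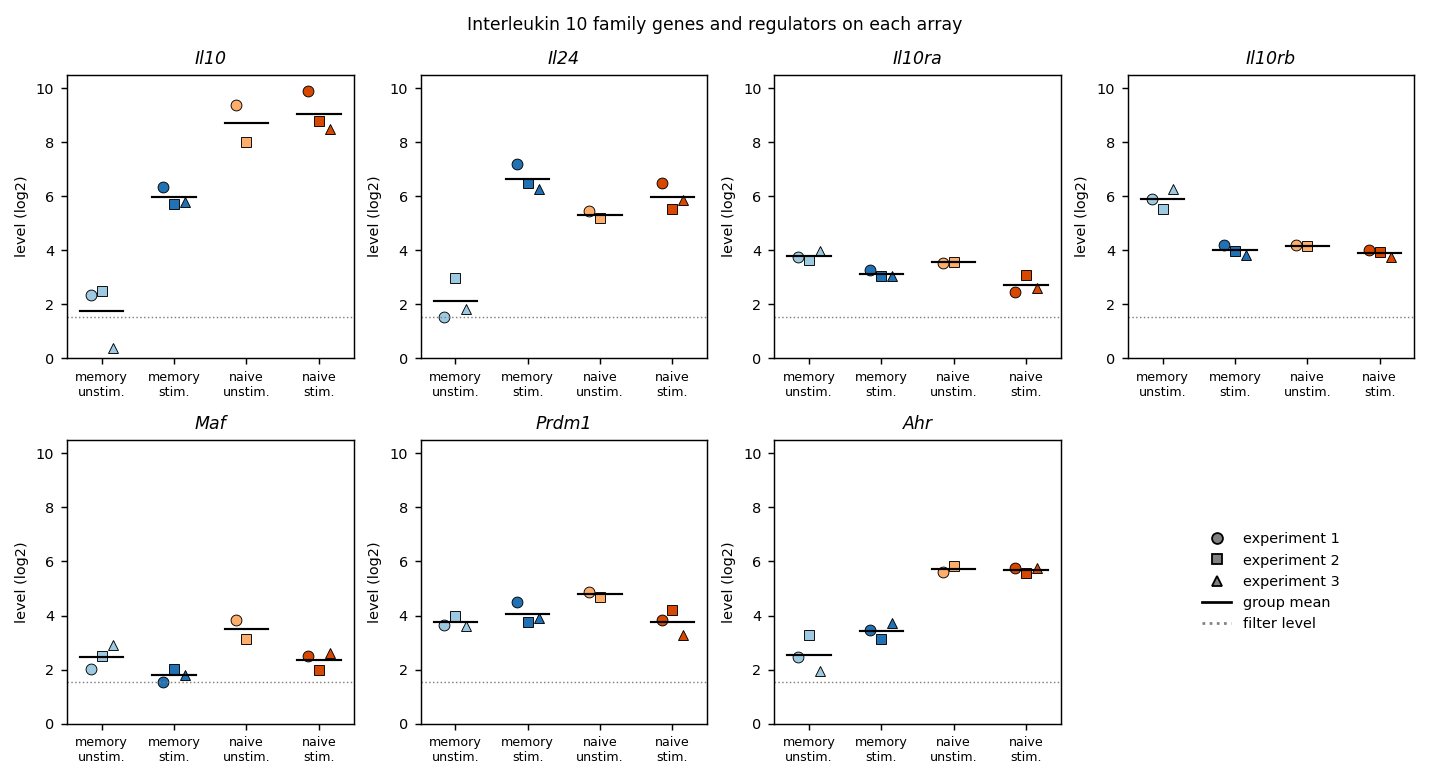
Level (log2) of the 7 measured genes on each of the 11 arrays. Symbols mark the experiment, bars the group mean and the dotted line the filter level of 1.54. Il10 and Ahr were higher on all naive-derived than on all memory-derived arrays, while Il24 was high in the 3 groups other than memory-derived unstimulated cells.

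Il20, the other ligand gene measured, lies between Il24 and Il10 in gene order. Its level was 2.17, 1.34 and 0.99 on memory-derived unstimulated and 2.23, 2.36 and 0.97 on memory-derived stimulated arrays, and 1.99 and 2.16 on naive-derived unstimulated and 2.22, 2.42 and 1.56 on naive-derived stimulated arrays. These groups overlapped, and the differences were 0.35 with stimulation in memory-derived cells (limma adjusted p = 0.543) and 0.58 by origin in unstimulated cells (adjusted p = 0.378). Il19 was not analysed here.

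Among the 16 protein-coding neighbours of Il10, 8 on each side, 13 were tested, Il24 and Il20 included. Apart from Il24, which is described without a test, 1 of the 12 rose with stimulation in memory-derived cells (14.3% of all tested genes) and 4 fell (17.3%). The gene that rose was Mapkapk2, the next gene on the other side of Il10, which encodes a kinase downstream of p38, at 0.68 (SE 0.151, adjusted p = 0.00605, and 0.0853 with experiments 1 and 2 only). Ikbke, which encodes a kinase of the innate immune response, had a change of -0.93 (SE 0.158, adjusted p = 0.00153). By origin in unstimulated cells 2 of the 12 were higher in naive-derived cells and 2 were lower, 4 of 12 in all where 25.8% of all genes passed. Among them Mapkapk2 was higher by 0.77 (SE 0.169, limma adjusted p = 0.00726, and 0.0879 without naive-derived unstimulated array 1) and Ikbke was lower, at -0.86 (SE 0.176, adjusted p = 0.00554).

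**Figure D2:**
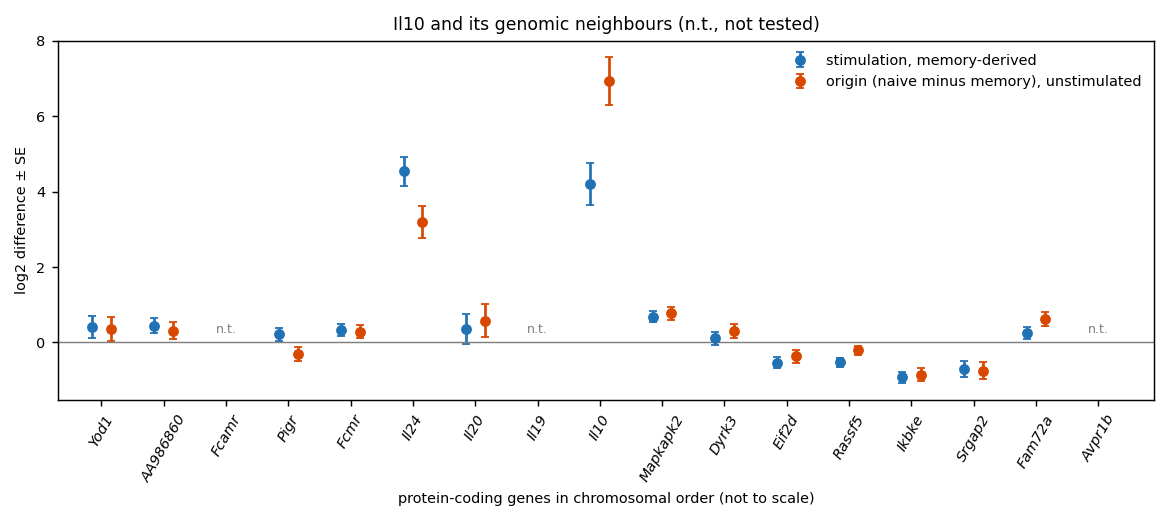
Log2 difference with its SE for Il10 and its 16 nearest protein-coding genes in chromosomal order, not to scale. Blue points give stimulation in memory-derived cells and orange points give origin in unstimulated cells. Il10 lies at 4.21 and 6.94 and Il24 at 4.54 and 3.20, which follows in part from how they were chosen, on arrays these comparisons share. The called differences of the other genes lie between -0.93 and 0.77.

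Il10rb, the shared chain, was highest in memory-derived unstimulated cells and lower in the other 3 groups. Its level was 5.89, 5.51 and 6.27 on memory-derived unstimulated, 4.18, 3.97 and 3.84 on memory-derived stimulated, 4.19 and 4.15 on naive-derived unstimulated, and 4.01, 3.93 and 3.75 on naive-derived stimulated arrays. The first group lay above all others, and of the other neighbouring pairs in the order both overlapped. In memory-derived cells stimulation went with a log2 change of -1.90 (SE 0.183, n = 3 and 3, limma adjusted p = 9.81e-05), a 3.72-fold fall. By origin the difference was -1.72 in unstimulated cells (SE 0.205, n = 2 and 3, limma adjusted p = 0.000405) and -0.10 in stimulated cells (SE 0.183, adjusted p = 0.850).

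Both calls on Il10rb held under all 19 alternatives. A second, dimmer probe set of Il10rb, at 0.71 to 2.42, showed differences of only 0.04 with stimulation in memory-derived cells and 0.18 by origin in unstimulated cells, and the mean of both probe sets gave -0.93 and -0.77. The response of Il10rb differed between origins by 1.62 (SE 0.275, limma adjusted p = 0.0242). This call was lost with the replicate block (adjusted p = 0.0634), with the mean of the probe sets (0.242) and with experiments 1 and 2 only (0.0591). It was also lost without memory-derived stimulated array 2 (0.0698) or 3 (0.0608), naive-derived unstimulated array 1 (0.110) or 2 (0.0971), or naive-derived stimulated array 1 (0.0524) or 2 (0.0583). Over all alternatives its adjusted p was 0.00737 to 0.242.

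Il10ra, the ligand-binding chain, was lower after stimulation in both origins, and the change passed in memory-derived cells. Its level was 3.74, 3.66 and 3.97 on memory-derived unstimulated, 3.28, 3.06 and 3.03 on memory-derived stimulated, 3.53 and 3.57 on naive-derived unstimulated, and 2.44, 3.08 and 2.61 on naive-derived stimulated arrays. The stimulated groups overlapped with each other and lay below both unstimulated groups. In memory-derived cells the log2 change of Il10ra was -0.67 (SE 0.169, limma adjusted p = 0.0119). The adjusted p was 0.539 with the mean of its 3 probe sets and 0.133 with experiments 1 and 2 only. A second probe set was at 0.34 to 2.37 and went the other way by 0.22, and the other was below the filter level on all arrays. In naive-derived cells the difference was -0.84 (SE 0.189, limma adjusted p = 0.256), and the responses of the origins differed by -0.17 (SE 0.254, adjusted p = 0.735).

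Of 7 receptor genes of the family listed, 6 were tested. With stimulation in memory-derived cells 2 fell (17.3% of all genes), Il10ra and Il10rb, and these were also the 2 with an unadjusted p below 0.05. Il20rb, a chain of receptors that bind the products of Il19, Il20 and Il24, was lower in naive-derived stimulated than in memory-derived stimulated cells, at -0.72 (SE 0.113, limma adjusted p = 0.00548, and 0.0682 with experiments 1 and 2 only). Il22ra1 was not above the filter level on any array.

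Among Maf, Prdm1 and Ahr, the last had the largest differences by origin. Ahr encodes a transcription factor activated by small molecules such as metabolites and pollutants. Its level was 2.45, 3.28 and 1.94 on memory-derived unstimulated, 3.47, 3.12 and 3.74 on memory-derived stimulated, 5.61 and 5.85 on naive-derived unstimulated, and 5.76, 5.59 and 5.75 on naive-derived stimulated arrays. Every naive-derived array lay above every memory-derived one, and groups of the same origin overlapped. The difference by origin was 3.17 in unstimulated cells (SE 0.318, n = 2 and 3, limma adjusted p = 0.000184) and 2.26 in stimulated cells (SE 0.285, n = 3 and 3, limma adjusted p = 0.00148).

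The origin differences of Ahr passed under all 19 alternatives, and a second probe set gave 1.37 and 0.76. With stimulation Ahr rose by 0.89 in memory-derived cells (SE 0.285, limma adjusted p = 0.0350), although the groups overlapped and experiment 2 went the other way (-0.16, against 1.02 and 1.81). That call was lost with the replicate block (adjusted p = 0.0573), with the compared groups only (0.0833), with the mean of probe sets (0.0901), and with experiments 1 and 2 only (0.329). It was also lost without memory-derived unstimulated array 1 (0.0922) or 3 (0.129, difference 0.58), or memory-derived stimulated array 1 (0.0853) or 3 (0.116). Over all alternatives the adjusted p was 0.0019 to 0.329. In naive-derived cells the difference was -0.03 (SE 0.318, adjusted p = 0.994). The responses differed by -0.92 (SE 0.427, limma adjusted p = 0.226). Leaving out memory-derived unstimulated array 2 gave 0.0302.

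Maf, a basic leucine zipper factor, was highest in naive-derived unstimulated cells. Its level was 2.02, 2.52 and 2.91 on memory-derived unstimulated, 1.53, 2.03 and 1.81 on memory-derived stimulated, 3.84 and 3.15 on naive-derived unstimulated, and 2.51, 1.98 and 2.62 on naive-derived stimulated arrays. The naive-derived unstimulated arrays lay above all others, and the other groups overlapped in order. In unstimulated cells Maf was higher in naive-derived cells by 1.01 (SE 0.299, limma adjusted p = 0.0293). That call rested on 1 of 6 probe sets: of the other 5, 3 were below the filter level on all arrays, the rest above it on 4 arrays each, and the mean of all gave 0.14 (adjusted p = 0.633).

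The Maf call was also lost with the compared groups only (0.0659) and without memory-derived unstimulated array 1 (0.0859) or 2 (0.05, just past the threshold) or naive-derived unstimulated array 1 (0.245, difference 0.67). Over all alternatives its adjusted p was 0.0187 to 0.633. With stimulation the difference was -0.69 in memory-derived cells (SE 0.267, limma adjusted p = 0.0714) and -1.12 in naive-derived cells (SE 0.299, limma adjusted p = 0.317). The former had an adjusted p = 0.0458 with control scaling, 0.0468 with origin and experiment as a random block, and 0.0290 when memory-derived unstimulated array 1 was left out.

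Prdm1 encodes Blimp-1, a transcriptional repressor that drives terminal effector differentiation and is known to act with c-MAF on Il10. Its level was 3.65, 3.99 and 3.61 on memory-derived unstimulated, 4.49, 3.75 and 3.90 on memory-derived stimulated, 4.89 and 4.68 on naive-derived unstimulated, and 3.83, 4.19 and 3.27 on naive-derived stimulated arrays. As for Maf, the naive-derived unstimulated arrays lay above all others and the other 3 groups overlapped in order. Prdm1 was higher in naive-derived than memory-derived unstimulated cells by 1.04 (SE 0.278, limma adjusted p = 0.0194). The call was lost without memory-derived unstimulated array 1 (0.0524) or 3 (0.0583) or naive-derived unstimulated array 1 (0.121) or 2 (0.0700), and over all alternatives the adjusted p was 0.0108 to 0.121.

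With stimulation Prdm1 had a difference of 0.30 in memory-derived cells (SE 0.248, limma adjusted p = 0.409) and of -1.02 in naive-derived cells (SE 0.278, limma adjusted p = 0.330). The responses differed by -1.32 (SE 0.372, limma adjusted p = 0.0766), and leaving out memory-derived unstimulated array 2 gave 0.0489. Prdm1 was the only gene of the 8 matched in the RefSeq promoter table (GRCm38.p6). Its promoter is shown with matches to the motifs of AP-1 and of the aryl hydrocarbon receptor in capitals. The 250 bases before its start lie on the minus strand at chr10:44458749-44458998 and read 5′ to 3′:
Prdm1: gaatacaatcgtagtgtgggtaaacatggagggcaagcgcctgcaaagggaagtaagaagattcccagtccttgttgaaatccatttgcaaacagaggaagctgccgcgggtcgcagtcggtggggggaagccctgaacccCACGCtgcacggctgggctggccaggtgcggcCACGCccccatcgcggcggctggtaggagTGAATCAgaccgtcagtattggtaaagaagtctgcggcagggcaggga

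The capitals mark matches to TGANTCA (AP-1, which reads alike on both strands), from 48 to 42 bases before the start, and to GCGTG (the aryl hydrocarbon receptor core, here on the other strand), from 109 to 105 and from 77 to 73 bases before it. Of 32851 promoter windows of this length, 6.75% held the first and 28.2% the second motif. TGCTGA (a Maf core, in 16.1% of windows), GNGAAAG (Blimp-1, in 19.4%) and TGGAAA (the NFAT core, in 18.6%) were not found on either strand of this window. A match is a description of letters and not a measured site.

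Counted together, 3 of the 5 genes tested passed with stimulation in memory-derived cells, where 31.6% of all tested genes passed. Of these 1 was higher (14.3% of all genes) and 2 were lower (17.3%). By origin 4 of 5 passed in unstimulated cells, where 25.8% of all genes passed, 3 of them higher in naive-derived cells (10.9%) and 1 lower (14.9%). In stimulated cells 1 of 5 passed by origin, where 3.7% of all genes passed and 1.69% were higher and 2.01% lower. The response to stimulation differed by origin for 1 of 5, where 2.71% of all genes passed, 1.62% higher and 1.09% lower. With stimulation in naive-derived cells 0 of 5 passed in limma, where 0.0135% of all genes passed (2 genes, both lower, with 1252 at an unadjusted p below 0.05). Of the 5, Il10ra, Maf and Prdm1 had an unadjusted p below 0.05 there, at 0.00104, 0.00321 and 0.00375.

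The arrays of Il10ra, Il10rb, Maf and Prdm1 were lower after stimulation without overlap in naive-derived cells, 4 of the 5 genes. That was so for 12.8% of all genes, with 13.6% higher and 26.4% in either direction. In memory-derived cells 2 of 5, Il10ra and Il10rb, were lower without overlap, where 24.7% of all genes were lower, 21.9% higher and 46.6% either. By origin 5 of 5 did not overlap in unstimulated cells, 3 higher (24.4% of all genes) and 2 lower (29.0%), with 53.4% in either direction. In stimulated cells only Ahr of the 5 did not overlap by origin, where 11.4% of all genes were higher, 14.3% lower and 25.7% either.

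**Figure D3:**
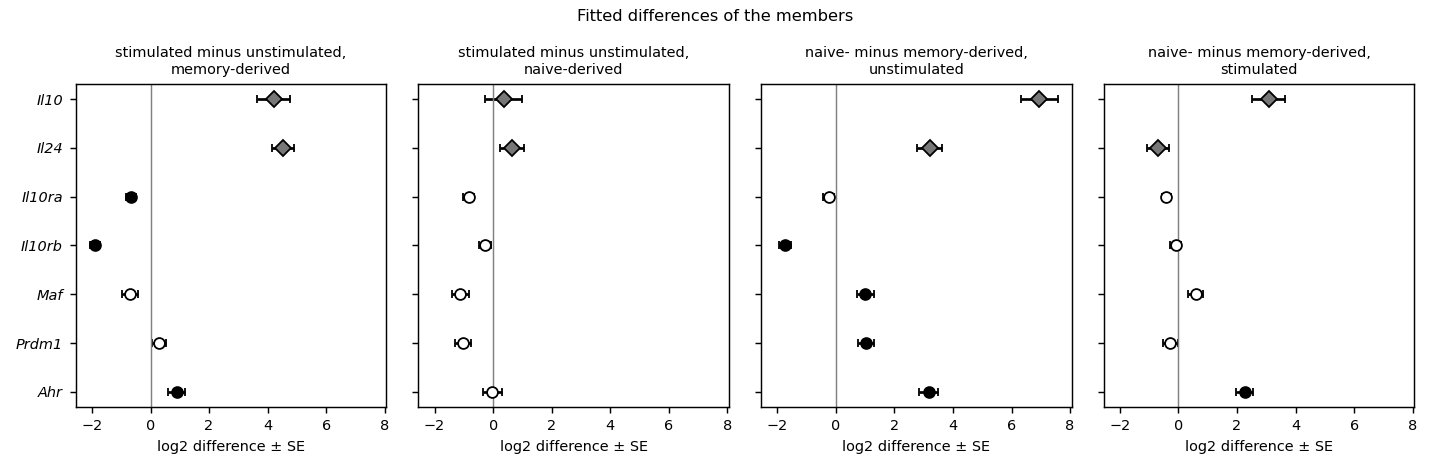
Fitted log2 difference with its SE for the 7 measured genes in the 4 comparisons of stimulation and origin. Black circles passed at an adjusted p below 0.05, white circles did not, and grey diamonds mark Il10 and Il24, which are shown without a test. Il10 and Ahr lie to the right in both comparisons of origin, and Il10rb lies to the left for stimulation in memory-derived cells and for origin in unstimulated cells.

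Other known regulators of Il10 in T cells were divided. Of 26 tested, 7 rose (14.3% of all tested genes) and 10 fell (17.3%) with stimulation in memory-derived cells, with a list median of -0.10 against 0.00249 for all tested genes. In unstimulated cells 9 were higher (10.9% of all genes) and 6 lower (14.9%) in naive-derived cells, with a median of 0.19 against -0.00899 for all genes. In stimulated cells 3 were higher (1.69%) and 2 lower (2.01%) by origin. With stimulation in naive-derived cells 0 of the 26 passed in limma, where 0.0135% of all genes passed. There 5 of the 26 had an unadjusted p below 0.05, as had 1252 of all 14795 genes tested. Irf4, a factor induced by antigen receptor signals, had a mean of 6.61 ± 0.553 (SD, n = 3) on memory-derived unstimulated arrays and lay at 8.66 to 9.49 on all other arrays. It rose by 2.12 with stimulation in memory-derived cells (SE 0.231, limma adjusted p = 0.000171) and was 2.17 higher by origin in unstimulated cells (SE 0.258, adjusted p = 0.000402).

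Batf, a partner of IRF4, followed origin in both states. In memory-derived cells its level was 5.02 to 5.21 without and 5.54 to 5.88 with stimulation, and in naive-derived cells 6.32 to 6.44 and 6.48 to 6.66, with no overlap between the groups. The origin difference was 1.27 in unstimulated cells (SE 0.146, limma adjusted p = 0.000341) and 0.89 in stimulated cells (SE 0.131, adjusted p = 0.00366, and 0.0513 with experiments 1 and 2 only). Ikzf3, which encodes the zinc finger factor Aiolos, was 1.00 higher by origin in stimulated cells (SE 0.125, adjusted p = 0.00143). Fos, an AP-1 subunit, was 1.81 higher by origin in unstimulated cells (SE 0.276, adjusted p = 0.00127).

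Eomes, a T-box factor of memory and effector CD8+ cells, was lower in naive-derived cells, at -2.50 without (SE 0.307, limma adjusted p = 0.000474) and -3.77 with stimulation (SE 0.275, adjusted p = 4.61e-05). Nfil3, a known activator of Il10, was likewise lower in naive-derived cells, at -0.68 (adjusted p = 0.0116) and -0.83 (adjusted p = 0.0107). The first call was lost without naive-derived unstimulated array 1 (0.0602) or 2 (0.0806), and the second without memory-derived stimulated array 3 (0.0519) and with experiments 1 and 2 only (0.0811). With stimulation in memory-derived cells Nfil3 had a change of -0.72 (SE 0.147, adjusted p = 0.00402). Zfp36, whose product destabilises cytokine mRNA, had a change of -0.74 there (SE 0.168, adjusted p = 0.00685). Creb1 and Ets1, which encode transcription factors, had changes of -1.72 and -1.44, and Egr2, an early response factor, of 1.50.

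Bhlhe40, a known repressor of Il10, passed with stimulation in memory-derived cells at -0.67 (SE 0.223, limma adjusted p = 0.0400) with overlapping groups. The call held under 5 of 19 alternatives. It was lost with the replicate block (0.051), no filter (0.052), control scaling (0.0563) and the compared groups only (0.0953), and in 10 of the 11 fits with 1 array less. The adjusted p was 0.129 and 0.131 without memory-derived unstimulated arrays 1 and 2, and 0.102, 0.109 and 0.0598 without memory-derived stimulated arrays 1, 2 and 3. It was 0.0548 without either naive-derived unstimulated array, and 0.0534, 0.051 and 0.0532 without naive-derived stimulated arrays 1, 2 and 3.

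**Figure D4:**
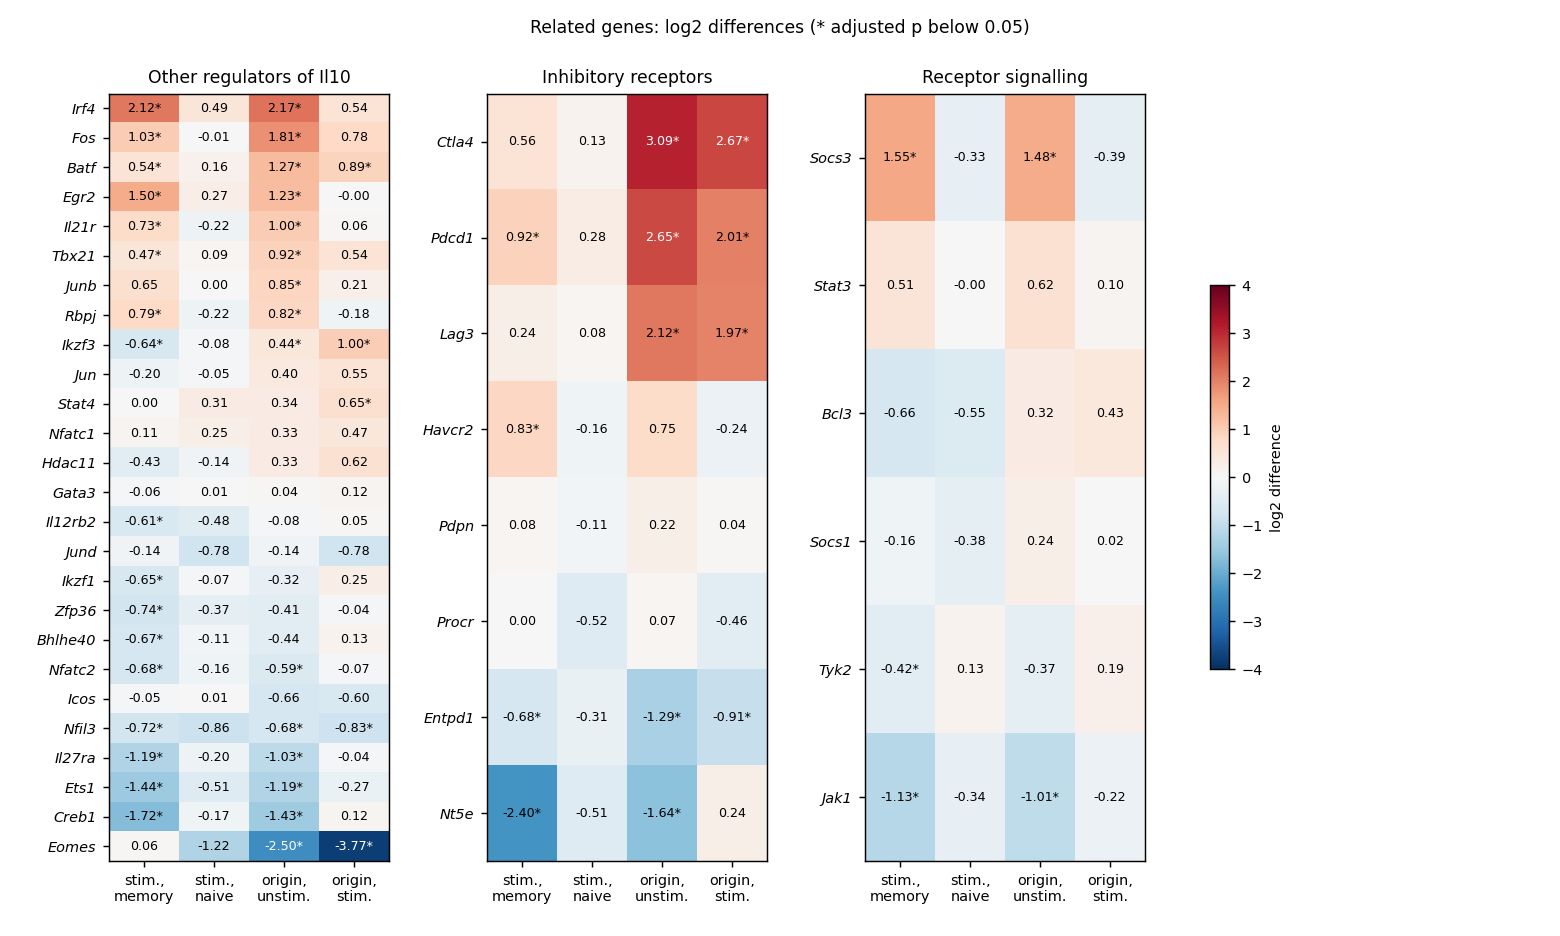
Log2 differences of other regulators of Il10, inhibitory receptors (with the ectoenzymes Nt5e and Entpd1) and receptor signalling genes in 4 comparisons, sorted by the origin difference in unstimulated cells. An asterisk marks an adjusted p below 0.05. Ctla4, Pdcd1 and Lag3 had positive values in both comparisons of origin (1.97 to 3.09). No gene shown passed with stimulation in naive-derived cells, where 0.0135% of all tested genes passed.

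A list of inhibitory receptors, with the ectoenzymes Nt5e and Entpd1, was drawn up around the regulators Blimp-1 and c-MAF shared with Il10. Of its 9 genes 8 were measured, and whether each shares these regulators was not tested. By origin 3 were higher (10.9% of all genes) and 2 lower (14.9%) in naive-derived unstimulated cells (median 0.48), and 3 were higher (1.69%) and 1 lower (2.01%) in stimulated cells (median 0.14). Lag3, a receptor for class II histocompatibility molecules, had 4.43 to 4.97 on the 6 memory-derived arrays and 6.68 to 7.08 on the 5 naive-derived arrays. Its origin difference was 2.12 without (SE 0.160, limma adjusted p = 4.27e-05) and 1.97 with stimulation (SE 0.143, adjusted p = 4.61e-05). Ctla4, which competes with CD28 for its ligands, differed by 3.09 (SE 0.432, adjusted p = 0.000832) and 2.67 (SE 0.387, adjusted p = 0.00339).

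Pdcd1, which encodes the inhibitory receptor PD-1, differed by 2.65 (SE 0.206, limma adjusted p = 4.85e-05) and 2.01 (SE 0.184, adjusted p = 0.00018). All 3 passed by origin in both states under all 19 alternatives, as Ahr did. Havcr2, which encodes TIM-3, rose with stimulation in memory-derived cells by 0.83 (SE 0.273, limma adjusted p = 0.0394) and had origin differences of 0.75 and -0.24. The Havcr2 call was lost without memory-derived stimulated array 1 (0.0765), 2 (0.0796) or 3 (0.105), memory-derived unstimulated array 3 (0.0975) or naive-derived stimulated array 2 (0.0501). It was also lost with experiments 1 and 2 only (0.147, difference 0.40), with the compared groups only (0.069) and with no filter (0.0503). Nt5e (CD73), an ectoenzyme that makes adenosine, was lower in naive-derived unstimulated cells at -1.64 (SE 0.310, adjusted p = 0.00376). Entpd1 (CD39), which acts before it, was lower in naive-derived stimulated cells at -0.91 (SE 0.160, adjusted p = 0.00995, and 0.0784 with experiments 1 and 2 only). Tigit was not analysed here.

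Of 7 genes of interleukin 10 receptor signalling, 6 were tested, and 1 rose (14.3% of all genes) and 2 fell (17.3%) with stimulation in memory-derived cells (median -0.29). Socs3, the feedback inhibitor, was 2.52, 2.93 and 2.55 on memory-derived unstimulated, 4.49, 4.11 and 4.04 on memory-derived stimulated, 4.31 and 3.98 on naive-derived unstimulated, and 3.88, 3.93 and 3.64 on naive-derived stimulated arrays. The memory-derived unstimulated arrays lay below all others. Socs3 rose by 1.55 with stimulation in memory-derived cells (SE 0.172, limma adjusted p = 0.000192) and was 1.48 higher by origin in unstimulated cells (SE 0.193, adjusted p = 0.000571). Its response differed by origin, at -1.87 (SE 0.258, limma adjusted p = 0.017). That call was lost with experiments 1 and 2 only (0.0591) and without naive-derived unstimulated array 1 (difference -1.71). Jak1 had a change of -1.13 with stimulation (SE 0.211, adjusted p = 0.00254), and Stat3 differed by 0.51 (adjusted p = 0.0647).

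Of 9 genes of the aryl hydrocarbon receptor pathway, 6 were tested. With stimulation in memory-derived cells 1 rose (14.3% of all genes), and in unstimulated cells 2 were higher by origin (10.9%; median 0.21). In stimulated cells 0 of the 6 passed by origin in limma, where 3.7% of all genes passed (median 0.20). There 2 of the 6 had an unadjusted p below 0.05, as had 2418 of all 14795 genes tested. Tiparp, a target that restrains the receptor, rose by 1.01 with stimulation (SE 0.145, limma adjusted p = 0.00065). It was 0.57 higher by origin in unstimulated cells (adjusted p = 0.0257). That call was lost without memory-derived unstimulated array 2 (0.0566) or naive-derived unstimulated array 1 (difference 0.42). It was also lost with the compared groups only (0.0969), control scaling (0.146) and the mean of probe sets (0.0671). Nqo1, a detoxifying enzyme and target, was 0.76 higher by origin there (SE 0.182, adjusted p = 0.0112, and 0.0542 or 0.0831 without naive-derived unstimulated array 1 or 2).

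Of 8 Maf and Bach family genes, 6 were tested, of which 4 rose (14.3% of all genes) and 1 fell (17.3%) with stimulation in memory-derived cells (median 0.90). By origin 3 were higher (10.9%) and 1 lower (14.9%) in unstimulated cells (median 0.75). The small Maf genes Mafg, Mafk and Maff rose by 1.12, 1.05 and 0.91, the last with an adjusted p = 0.0805 in limma with experiments 1 and 2 only. The other gene that rose, Nrl, lay near the filter level, with means of 0.78 without and 1.68 with stimulation. It was above that level on 0 of 3 and 2 of 3 arrays. With low values set to the filter level its difference was 0.21 (limma adjusted p = 0.44). Bach1, a repressor of the same family, was 0.86 higher by origin in stimulated cells (adjusted p = 0.0302). That call was lost without memory-derived stimulated array 1 (0.116), 2 (0.0803) or 3 (0.0825) or naive-derived stimulated array 1 (0.0906) or 3 (0.0991). It was also lost with control scaling (0.0766) and with experiments 1 and 2 only (0.0887). Bach2, a repressor known to restrain Prdm1 and effector differentiation, had a change of -0.72 with stimulation in memory-derived cells (SE 0.188, limma adjusted p = 0.0134, and 0.0509 or 0.0524 without the stimulated or unstimulated array 1). It was lower by origin in unstimulated cells, at -0.88 (SE 0.210, adjusted p = 0.011, and 0.0646 or 0.0681 without naive-derived array 1 or 2).

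Of 10 genes that oppose Blimp-1 or are repressed by it, 9 were tested, and 3 rose (14.3% of all genes) and 2 fell (17.3%) with stimulation in memory-derived cells (median -0.01). By origin 2 were higher (10.9%) and 1 lower (14.9%) in unstimulated cells and 2 were higher (1.69%) in stimulated cells. Id3, an inhibitor of E proteins, was 2.14 higher by origin in stimulated cells (SE 0.323, limma adjusted p = 0.00426). Bcl6, the antagonist of Blimp-1, had differences of -0.60 with stimulation in memory-derived cells and -0.21 by origin in unstimulated cells (adjusted p = 0.272 and 0.769). Il2, which Blimp-1 is known to repress, was higher in naive-derived cells together with Prdm1, at 7.87 in unstimulated cells (SE 0.761, adjusted p = 0.000165).

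The genes most like Il10 over the 11 arrays, by the root mean square difference of values centred on each gene's mean, were Tnfrsf4 (1.07 log2), Plk2 (1.22) and Ndrg1 (1.30), out of 14788 genes compared. Tnfrsf4, the costimulatory receptor OX40, had means of 4.68, 7.15, 9.35 and 9.82 in the order used for Il10. For Il24 they were Idi2 (0.616), Tnf (0.624) and Cd70 (0.632). For Maf they were 2310040G24Rik (0.301), Zfp286 (0.344) and Cnnm1 (0.361). The group means of these 3 genes ran from 0.863 to 2.25, near the filter level of 1.54, so their likeness to Maf rests on low values. The lists of nearest genes for Il10 and Il24 shared 0 genes, but lists of 3 out of 14788 cannot show whether the patterns differ.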

How the data were processed

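The authors deposited 1 value per probe set and array on a log10 scale. Per the submitters' processing notes the tool was Affymetrix Expression Console; the summarization method is not given in the sources used here. The base was inferred from the values: hybridization controls stepped by 0.965, 0.8 and 1.7 per 10-fold of concentration. All 11 arrays held the same sorted values, so they had been quantile normalized before deposit, and array intensity says nothing of depth. Precision is set by how few arrays there are.

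The deposited log10 values were converted to log2 with a factor of 3.32. The annotation gave 34945 probe sets 1 gene symbol and 932 several, and did not list 9160; only the first were named. Each gene was represented by its single-symbol probe set with the highest mean, and tested if above the 40th percentile on at least 2 arrays. limma 3.58.1 in R 4.3.3 was fitted to all 11 arrays with 4 group means, and p values were adjusted by Benjamini and Hochberg over 14795 genes, with a call at 0.05. The fit was tested on simulated data. The sample descriptions number the experiment of each array, and only this label pairs them: deviations from group means correlated at -0.0716 to 0.112 within experiments (median 0.0341) and -0.131 to 0.112 between them (median -0.00361). Alternatives were no filter, mean of probe sets, control scaling, low values set to the filter level, compared groups only, a replicate block, a random block of origin and experiment, experiments 1 and 2 only, and leaving out each array. Named genes were the 8, certain genes fixed by name in lists, and up to 4 of the largest calls per list and comparison; the design had foreseen counts over all genes of the 8 but Il10 and Il24, and without Il22 these cover 5. Members and lists were chosen with earlier results of these data known. P values of the main fit rest on the spread between arrays within a group, pooled over the 4 groups and moderated over genes. Arrays within a group come from different experiments, but the pairing of groups by experiment is not used.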

Additional observations from a re-analysis of the deposited data

Results flagged for a closer look

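The response of Il10rb to the last stimulation differed between origins by a test of the difference itself, the interaction term of limma, with a log2 value of 1.62 (SE 0.275, adjusted p = 0.0242). Its log2 differences with stimulation were -1.90 in memory-derived and -0.27 in naive-derived cells. The call held under 9 of 18 alternatives. Among others it was lost with the replicate block (adjusted p = 0.0634) and with the mean of the probe sets (0.242). The second probe set of Il10rb had differences of 0.04 and -0.15 with stimulation in memory-derived and naive-derived cells.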

How the results depend on the processing

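Alternatives were compared for the counts of genes that passed and for each gene's difference. For stimulation in memory-derived cells, 3035 of all genes passed with control scaling and 2755 with experiments 1 and 2 only, against 4675. Of the 5 genes, 1 passed there with the mean of probe sets and 1 with experiments 1 and 2 only, against 3. For stimulation in naive-derived cells 0 passed with no filter, with the compared groups only and with the replicate block, 1 with control scaling and with experiments 1 and 2 only, and 4 with low values set to the filter level, against 2. By origin 2407 passed with control scaling and 2376 with the compared groups only in unstimulated cells, against 3819, and 258 with experiments 1 and 2 only in stimulated cells, against 548. For the difference in response the counts were 174 with no filter, 146 with control scaling, 925 with low values set to the filter level, 26 with the replicate block, 891 with the random block and 49 with experiments 1 and 2 only, against 401. Of the 5 genes 0 passed there with the mean of probe sets, the replicate block or experiments 1 and 2 only. The compared groups alone cannot give that difference. The Il10 difference in response was -2.98 with experiments 1 and 2 only. Signs turned for Ahr with stimulation in naive-derived cells with the replicate block (0.018) and for the Maf difference in response with the mean of probe sets (0.24). The causes were not tested. With experiments 1 and 2 only fewer arrays enter, and memory-derived unstimulated array 3 is among those left out.

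Leaving out each array in turn gave 0 to 5 genes for stimulation in naive-derived cells, 1843 to 4161 and 287 to 701 by origin without and with stimulation, and 0 to 1505 for the difference in response. The extremes of the last came without naive-derived unstimulated array 1 and without memory-derived unstimulated array 2. Of the 5 genes 2 to 4 passed by origin in unstimulated cells and 0 to 3 in the difference in response. With stimulation in naive-derived cells Il10 ranged from -0.34 to 1.05, with -0.06 without naive-derived stimulated array 1, and Ahr from -0.15 to 0.092, with 0.029 without naive-derived stimulated array 2. The replicate block also ended the calls on Ahr with stimulation in memory-derived cells (adjusted p = 0.0573) and on the Il10rb difference in response (0.0634), and no other call on the 5 genes. For the single differences of the 5 genes, 253 leave-one-out values and 180 others kept their direction and side of the threshold, while 17 and 11 no longer passed.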
